A study of Mus musculus with 20 samples.

Results

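Broad accessible sites of cells with wild-type (WT) CTCF are the stretches of open chromatin that the WT peak list reported as a single peak of at least 1500 bp. On chromosomes 1 to 19 they numbered 2066 of 168442 WT peaks, 1.23% of the peaks and 4.21% of the covered bases, 3.55 Mb in all. They were chosen by their WT width, so that width is given only as a description. The question put to them was whether each was still present in cells with a mutant CTCF, how much of its width was still covered, and whether it appeared there as several peaks.

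The peaks came from Omni-ATAC-seq, which marks open chromatin by where a transposase can reach the DNA and insert sequencing adapters, in E14Tg2a mouse embryonic stem cells of the 129/Ola strain. In every line the cell's own CTCF carried an auxin-inducible degron and was degraded with 500 µM indole-3-acetic acid, while 1 µg/ml doxycycline switched on a Ctcf transgene, both for 2 days. The 10 genotypes differed in that transgene, which was WT or carried R339Q, R342C, S354F, K365T, R377C, R377H, Q418R, R448Q or H455R. All lines grew in serum with leukemia inhibitory factor and inhibitors of GSK3 and MEK. Each genotype was 1 cell line with 2 replicates, and the labels do not say whether these were separate cultures or how strongly each transgene was expressed. The authors combined the replicates into 1 list per genotype, so line and genotype cannot be told apart, and with no replicate spread the genotypes could not be tested against each other. Every interval below is an exact Clopper-Pearson 95% interval and covers counting error over sites only, and all 9 comparisons share the same WT list.

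CTCF recognises a long DNA motif with its row of zinc fingers, holds neighbouring nucleosomes away from it and stops cohesin, which shapes chromatin loops. From general knowledge of the protein, R339Q and R342C change the third zinc finger, S354F and K365T the fourth, R377C and R377H the linker that follows it, Q418R the sixth, and R448Q and H455R the seventh. A single bound factor usually opens a short stretch of DNA. A stretch of open chromatin as long as several nucleosomes is seen mainly at active promoters with many CpG dinucleotides and at clustered enhancers.

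Gene starts were the commonest location of the broad sites, and the bases before 3 of these starts show how unlike their sequences can be. The genes below name the 3 widest sites in which the start table places the start of the naming gene itself, and not only that of a neighbour. The lines give the 250 bases before the start, 5′ to 3′ on the strand of the gene, from RefSeq on GRCm38.p6, with each CpG dinucleotide in capitals. Clstn1 encodes the synaptic membrane protein calsyntenin-1 (chr4:149586218-149586467, plus strand), Nlrp6 an innate immune sensor (chr7:140920652-140920901, plus strand) and Sinhcaf a subunit of the SIN3 histone deacetylase complex (chr6:148946471-148946720, minus strand).
Clstn1: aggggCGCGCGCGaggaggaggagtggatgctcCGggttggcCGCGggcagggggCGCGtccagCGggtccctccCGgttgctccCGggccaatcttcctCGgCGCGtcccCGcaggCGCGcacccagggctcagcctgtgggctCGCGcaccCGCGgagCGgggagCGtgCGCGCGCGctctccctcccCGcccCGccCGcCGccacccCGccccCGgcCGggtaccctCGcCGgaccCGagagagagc
Nlrp6: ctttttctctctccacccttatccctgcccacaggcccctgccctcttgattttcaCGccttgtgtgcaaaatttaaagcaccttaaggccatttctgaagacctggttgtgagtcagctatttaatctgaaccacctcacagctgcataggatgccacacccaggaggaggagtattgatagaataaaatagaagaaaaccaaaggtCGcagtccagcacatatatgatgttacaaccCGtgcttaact
Sinhcaf: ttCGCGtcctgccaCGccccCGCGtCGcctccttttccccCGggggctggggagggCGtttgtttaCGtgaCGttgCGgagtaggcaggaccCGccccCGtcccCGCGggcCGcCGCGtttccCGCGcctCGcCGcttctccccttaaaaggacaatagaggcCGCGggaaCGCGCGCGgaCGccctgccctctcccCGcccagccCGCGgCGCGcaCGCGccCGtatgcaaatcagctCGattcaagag
The Clstn1 and Sinhcaf stretches each held 38 CpG dinucleotides, and the Nlrp6 stretch held 3. Over the full 300-base start windows, which add the first 50 transcribed bases, the ratio of observed to expected CpG was 1.01 at Clstn1, 1.21 at Sinhcaf and 0.19 at Nlrp6. These sites differed in the mutants too. The Clstn1 site was cut into 2 or 3 peaks in all 9 lists and the Nlrp6 site in 8, while the Sinhcaf site stayed a single peak in 8.

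The lists themselves differed in ways that touch every result here. The background coverage of a list, the expected read coverage read from the steps of its fold values and the only measure of depth used here, was 5.96 in WT. In the mutants it was 5.45 in R448Q, 4.66 in H455R, 4.40 in S354F, 4.36 in R377C, 4.07 in R377H, 3.95 in R339Q, 3.78 in Q418R, 3.62 in R342C and 3.49 in K365T. Only 28.9% (R339Q) to 33.8% (R448Q) of the fold values of a list lay on its fitted steps. Background coverage was not checked against read totals, so it is a rough measure of depth. K365T, the lowest, held 139580 peaks, and R339Q held 121032. The shortest gap that a list left between 2 of its peaks ran from 72 bp in K365T to 129 bp in S354F, and was 91 bp in WT. In each list, peak numbers skipped 1.29% to 1.44% of the series, and peaks with those numbers were not analysed here. Of the naive pluripotency genes, 17 of 19 had a WT peak at an annotated end, as did all 8 trophoblast and all 7 neural marker genes. Fibroblast markers had one for 6 of 9 and primitive endoderm markers for 5 of 8. Among all protein-coding genes on chromosomes 1 to 19 it was 14977 of 20665. Such peaks therefore do not tell naive cells from trophoblast or neural ones.

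The broad sites had a median width of 1665 bp (quartiles 1568 and 1810), and 195 reached 2000 bp. Their peak strength, the fold enrichment that the authors' caller gave each peak, had a median of 8.08 and ranged from 2.71 to 20.1. That median lay at percentile 78.6 of the WT peaks on these chromosomes, and 959 of the broad sites (46.4%) were in the strongest 20%. Broad sites were thus stronger than most WT peaks, but were not the strongest width class. The median fold was 3.88 for WT peaks under 500 bp, 7.20 from 500 to 999 bp and 9.19 from 1000 to 1499 bp. The narrowest members, at 1500 bp, lay inside Gli2 (fold 5.88, median share covered in the mutants 65.9%), at Fam184a (10.0, 89.3%) and inside Hoxb3 (6.04, 82.3%). Just outside, at 1499 bp, were sites at Mfsd6 (fold 9.53, 92.9%), Ndufa10 (14.8, 72.8%) and Jag2 (5.66, 70.3%).

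Nearly every broad site was found again. An overlap of at least 1 bp was present in all 9 mutant lists for 2063 of 2066 sites, 99.9% (99.6 to 100), against 48.5% of all WT peaks on these chromosomes. The share rose with width: it was 26.3% for WT peaks under 500 bp, 82.8% from 500 to 999 bp and 98.1% from 1000 to 1499 bp. In single lists R339Q held 2066 of the sites, K365T 2064, R448Q 2063 and the other 6 lists 2065 each. Over all WT peaks the share found was 64.9% in R339Q, 69.1% in Q418R, 71.7% in K365T, 72.3% in R448Q, 73.9% in R342C, 74% in R377H, 75.7% in S354F, 79.1% in R377C and 80.7% in H455R. Broad sites and narrow peaks differed in strength as well as width, and the part of each in this gap was not tested.

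The 3 sites missing from a list were at Brox and Aida, inside Pde3a and 44.5 kb from Fmnl2. The Brox and Aida site (chr1:183296446-183298191, fold 7.91) lies over the starts of these divergent genes, of an endosomal Bro1-domain protein and an axin-interacting protein. It was 83.2% covered in R339Q and 76.8% in Q418R, with no peak in the other 7 lists. At that place WT, R339Q and Q418R each skipped 1 peak number and the other 7 lists skipped 2, so an unlisted peak there cannot be told apart from no peak. No number was skipped at the other 2 sites. Inside Pde3a, the gene of a cyclic nucleotide phosphodiesterase, the 1745-bp site (chr6:141431475-141433219, fold 6.38) was absent from Q418R and R448Q. It was covered at 16.9% in R339Q, 18.6% in R342C, 23.4% in K365T, 30.7% in R377H, 43.6% in S354F, 71.0% in H455R and 78.6% in R377C. Only the last 2 lists held most of it. The site 44.5 kb from Fmnl2, the gene of an actin regulator, was absent from K365T and R448Q and covered at 13.3% (R377H) to 88.6% (H455R) in the others.

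What changed was width. Of the summed width of the 2066 sites, the mutant lists covered 84.7% in R339Q, 86.4% in Q418R, 87.0% in K365T, 88.3% in R342C, 89.2% in R377H and 90.7% in H455R. R448Q, S354F and R377C reached 91.7%, 91.7% and 91.8%. The median site was covered at 88.0% in R339Q and up to 96.2% in R448Q, as the plot of the width covered in each list shows. The top of this order follows background coverage: the 4 mutant lists with the highest background coverage were the 4 with most width covered, while R342C and K365T, with the lowest, came above R339Q. The part of depth in the order was not tested. The pair of substitutions of the same arginine differed, with 91.8% covered in R377C and 89.2% in R377H, where background coverage was 4.36 and 4.07. Over WT peaks of 1000 to 1499 bp, the share of the summed width covered was 83.3% (R339Q) to 91.3% (S354F), close to that of the broad sites. Under 500 bp it was 43.7% (R339Q) to 65.1% (H455R). The loss of width was thus not particular to broad sites.

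**Figure D1:**
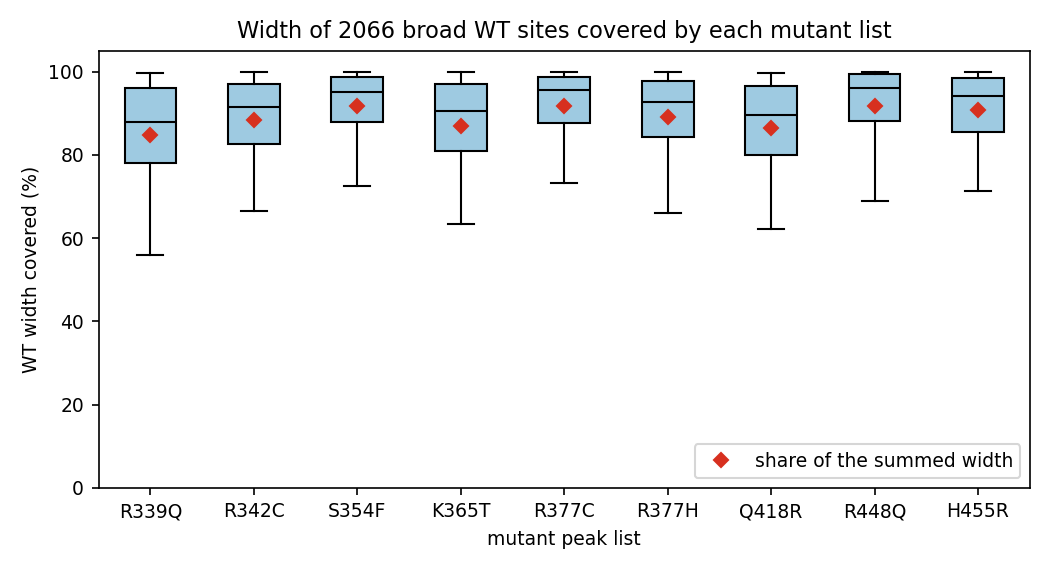
Share of the WT width of the 2066 broad sites covered by each mutant peak list (y axis, percent; x axis, list), with boxes at the quartiles and median over sites, whiskers at the 5th and 95th percentiles over sites and diamonds at the share of the summed width. The diamonds lie between 84.7% (R339Q) and 91.8% (R377C).

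The lost width lay mostly at the edges. Of the uncovered bases, 64.9% (K365T) to 77.2% (S354F) were beyond the outermost mutant peak of the site and the rest in gaps between mutant peaks. Sites with less than 50% of their width covered were few, from 9 in S354F to 57 in R339Q, that is 0.436% and 2.76% of the sites. R377C and H455R had 10 each, R342C 22, R377H 26, R448Q 27, K365T 38 and Q418R 43. Among all WT peaks the share was 21.9% in H455R, 23.4% in R377C, 27% in S354F, 29.5% in R342C, 29.5% in R377H, 31.1% in R448Q, 32.4% in K365T, 35% in Q418R and 39.8% in R339Q. The sites covered completely numbered 77 in R339Q and 359 in R448Q. The stretch from the first to the last overlapping mutant peak, gaps included, was longer than the WT peak at 42.4% of sites in R448Q. In R339Q it was longer at 15.2%. A split or shifted site can count here too. Neither this share nor that of complete cover was computed over all WT peaks. By this measure the mutant lists held stretches both shorter and longer than the WT peaks.

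Choosing sites by their width in 1 list favours that list, so the reverse view was taken as well. Peaks of at least 1500 bp numbered 1074 in K365T, 1164 in R339Q, 1187 in Q418R, 1410 in R342C, 1464 in R377H, 1606 in H455R, 1973 in R377C, 2226 in S354F and 2404 in R448Q. S354F and R448Q therefore held more broad peaks than the 2066 of WT. The WT list covered 90.1% (R448Q) to 96.1% (K365T) of the width of the mutants' own broad peaks. In 8 of the 9 lists this was a larger share than the mutant list covered of the WT sites. In R448Q it was smaller, 90.1% against 91.7%. Of the mutants' own broad peaks, 56.7% (R448Q) to 79.9% (K365T) overlapped a broad WT site.

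Splitting separated the lists more than coverage did. A broad WT site counted as split when 2 or more mutant peaks overlapped it. S354F split 280 sites, 13.6% (12.1 to 15.1), against 1.12% of all WT peaks. R448Q split 383 (18.5%, background 1.69%), R377C 384 (18.6%, background 1.32%) and R342C 450 (21.8%, background 1.77%). H455R split 473 (22.9%, background 1.83%), R339Q 526 (25.5%, background 1.69%) and R377H 569 (27.5%, background 2.14%). Q418R split 614 (29.7%, background 2.09%). K365T split most, 783 sites or 37.9% (35.8 to 40.0), against 3.05% of all WT peaks. The highest and the lowest share thus came from 2 substitutions of the same zinc finger, each in 1 pooled list. A wide WT peak has more room for 2 peaks than a narrow one, so nothing is read from the distance between these shares and the background.

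The plot of splitting shows beside it how many sites kept a broad peak, meaning a mutant peak of at least 1500 bp over the site. S354F kept 1366 (66.1%, background 1.73%), R448Q 1362 (65.9%, 1.83%) and R377C 1327 (64.2%, 1.47%). H455R kept 1172 (56.7%, 1.14%), R377H 1077 (52.1%, 1.01%) and R342C 1051 (50.9%, 0.999%). Q418R kept 896 (43.4%, 0.826%), R339Q 876 (42.4%, 0.819%) and K365T 858 (41.5%, 0.708%). The shares thus ran from 41.5% to 66.1%, with S354F, R448Q and R377C highest. Across the 9 lists, 338 sites (16.4%) kept a broad peak in all and 216 (10.5%) in none, shares that were not computed over all WT peaks.

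**Figure D2:**
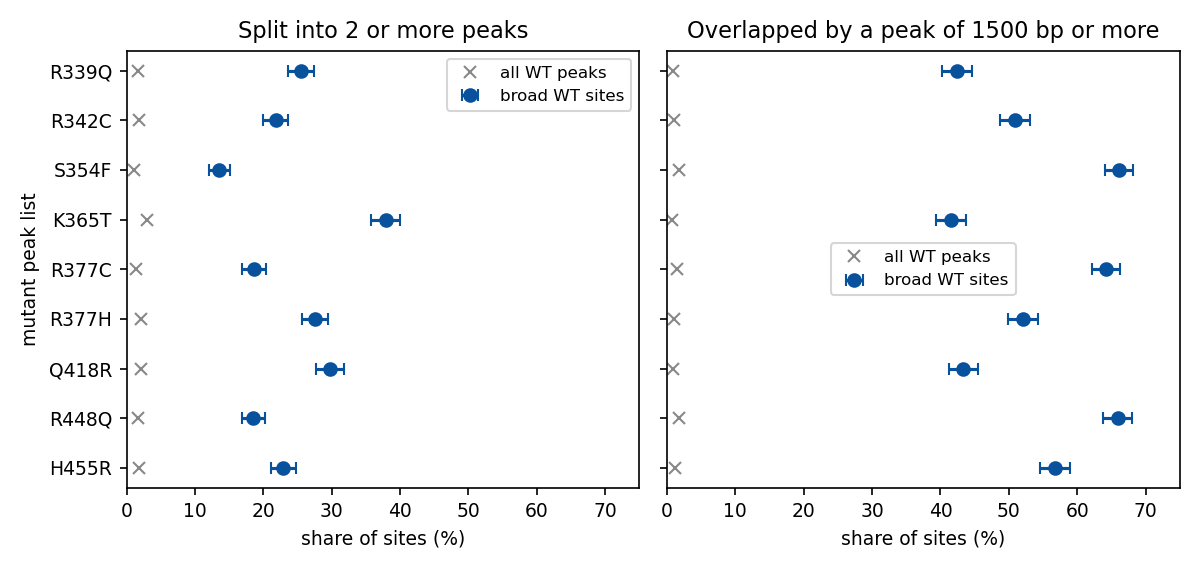
Share of the 2066 broad WT sites (x axes, percent) split into 2 or more mutant peaks (left) or overlapped by a mutant peak of at least 1500 bp (right) in each mutant list (y axis), with exact 95% binomial intervals; crosses give the same share over all 168442 WT peaks. K365T has the highest split share at 37.9% and S354F the lowest at 13.6%.

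Single sites differed in how often they were split. No mutant list split 772 of the sites (37.4%), 369 were split in 1 list, 405 in 5 or more and 39 in all 9. These counts across lists were not computed over all WT peaks. Most split sites were in 2 pieces, and 3 or more pieces were seen at 20 (R377C) to 92 (K365T) sites. The gaps were short, with medians of 136 bp in K365T, 146 bp in R448Q, 149 bp in R377H, 159 bp in H455R, 160 bp in Q418R, 175 bp in R342C, 183 bp in R377C, 185 bp in S354F and 190 bp in R339Q. The shortest gap of a list sets the floor of these lengths. Between 72.5% (S354F) and 80.5% (R339Q) of the gaps lay in the central 50% of the WT site.

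The shortest gap that a list leaves moves with these counts in part. K365T and R377H had the shortest of these shortest gaps, 72 and 87 bp, and were among the 3 lists that split most, while S354F and R377C had the longest, 129 and 126 bp, and were among the 4 that split least. R448Q and R339Q did not follow this order: R448Q had a shortest gap of 97 bp and split 18.5%, and R339Q had 119 bp and split 25.5%. Q418R, at 98 bp, split 29.7%. When mutant peaks less than 150 bp apart were joined, the split share fell to 18.6% in K365T, 14.2% in R377H, 17.2% in Q418R, 13.4% in H455R, 14.0% in R342C, 9.0% in R448Q, 13.8% in R377C and 10.5% in S354F. R339Q then split most, with 18.97%, but only 392 sites against 385 in K365T. R448Q then split least, in place of S354F. With peaks joined in all 10 lists, which gave 2808 broad WT sites, K365T was again highest, at 29.0% against 27.5% in R339Q. R448Q stayed lowest there, at 16.6%. With each mutant list limited to its 121032 strongest peaks, as many as the shortest list, R339Q, holds, K365T (26.5%) lay beside R339Q (25.5%) and S354F (8.66%) beside R377C (9.73%). The share then also fell to 12.1% in H455R, 13.4% in R342C, 17.0% in R377H and 11.3% in R448Q. The order of the lists in splitting therefore depends on how near each other 2 peaks may lie before they are counted as 1, and on how many peaks a list holds.

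**Figure D3:**
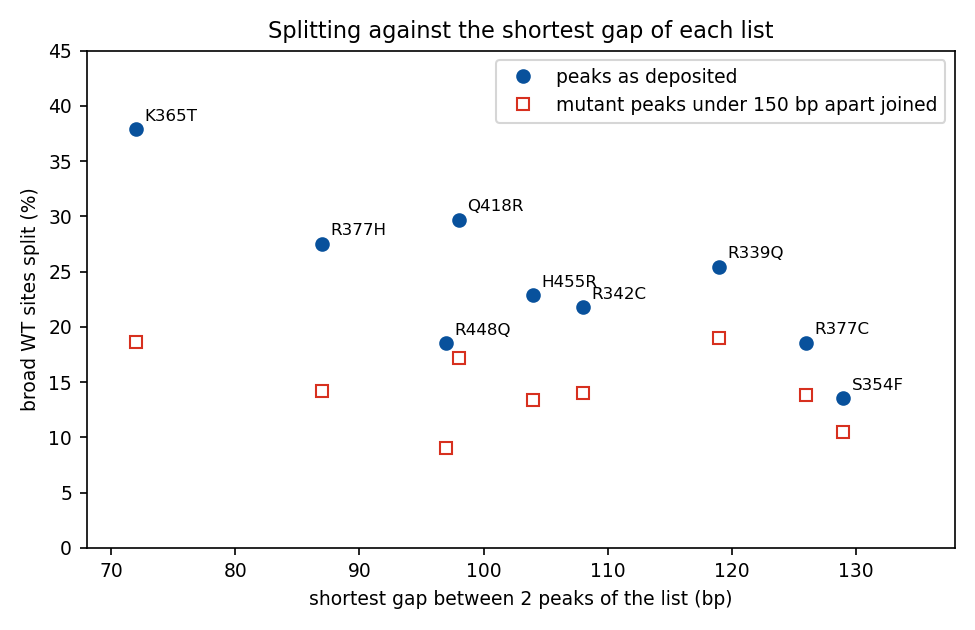
Share of broad WT sites split into 2 or more peaks (y axis, percent) against the shortest gap between 2 peaks of the same mutant list (x axis, bp); circles use the peaks as deposited, and squares below them the same list with peaks less than 150 bp apart joined. K365T drops from 37.9% to 18.6% and S354F from 13.6% to 10.5%.

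Broad sites lay mostly at genes. Of the 2066, 1213 (58.7%) overlapped or lay within 1 kb of an annotated end of a protein-coding gene, 504 (24.4%) lay elsewhere in such a gene, 110 (5.32%) in another gene and 239 (11.6%) between genes. Gene ends took 6.92% of WT peaks under 500 bp, 16.6% from 500 to 999 bp and 41.8% from 1000 to 1499 bp. A RefSeq start lay inside 987 of the 2000 broad sites on chromosomes with a start table (49.4%), against 1.70%, 11.5% and 35.6% in the 3 narrower classes. Starts on both strands lay in 203 of these sites. In the other 784, distances were measured from the most upstream start in the site. This choice lengthens the downstream side where a site holds several starts. By this measure the sites reached a median of 1012 bp (quartiles 747 and 1290) downstream, into the gene, and 665 bp (441 and 936) upstream. Of the 784 sites, 520 (66.3%) were longer on the downstream side, and the part of the chosen start in this was not tested.

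The start itself was seldom lost. The most upstream start was still covered by a peak in 95.7% (Q418R) to 98.9% (R448Q) of the 784 sites. It lay a median of 665 bp from the upstream edge. Cover at other points inside the sites, or at starts in narrower WT peaks, was not computed. Nothing particular to gene starts is therefore read from these shares. The width the 784 sites lost was spread over both edges and the inside. The mean was 45.3 bp (R448Q) to 78.8 bp (R339Q) from the upstream edge and 41.9 bp (R448Q) to 101 bp (R339Q) from the downstream edge. Gaps between peaks inside the site took a mean of 20.3 bp (R448Q) to 62.7 bp (K365T), which in K365T was more than the 59.3 bp of the upstream edge.

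Sites at gene starts were split less often than the others. A site within 1 kb of the start of a protein-coding gene (997 of 2000) was split in 8.32% (S354F) to 30.7% (K365T) of cases. A site at neither a start nor an annotated 3′ end (697) was split in 21.7% to 47.8%, in the same lists. Sites at the 3′ end alone, called far-end sites here (66), were split in 16.7% (S354F) to 47.0% (Q418R). The remaining 240 sites lay at genes of unknown strand. In all 9 lists the start sites had the lowest share, as the plot by gene start and far end shows. Start sites were also stronger in WT, with a median fold of 8.75 against 6.11 at far ends and 7.46 at neither. Between folds of 4.86 and 7.37, the quartiles of the far-end sites, start sites had the lowest split share in all 9 lists. It was 10.1% to 38.0% of 258 start sites, against 12.5% to 43.8% of 32 far-end sites and 20% to 49.6% of 280 at neither. The distance from start to far-end sites ran from 10.1% against 12.5% in S354F to 25.6% against 43.8% in R377H. The part of strength in these differences was not tested. The 9 lists share the same WT sites, so their number is no independent repeat.

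**Figure D4:**
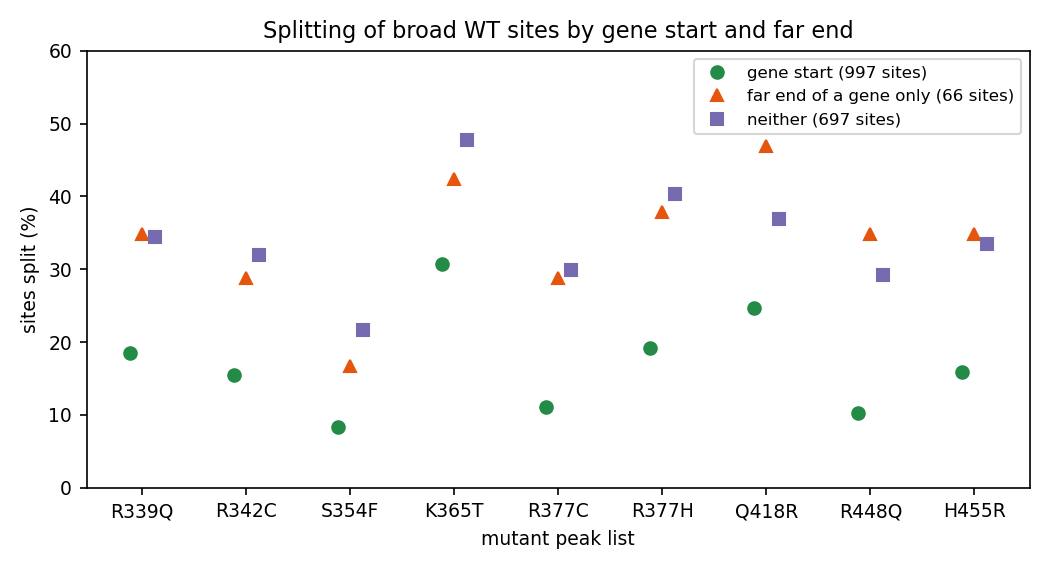
Share of broad WT sites split into 2 or more peaks (y axis, percent) in each mutant list (x axis), for 997 sites at a gene start (circles), 66 at the far end of a gene only (triangles) and 697 at neither (squares). The circles are lowest in every list, from 8.32% in S354F to 30.7% in K365T.

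The bases at the starts inside broad sites were rich in CpG. Of 31396 RefSeq start windows of 300 bases, 1400 lay at starts in a broad site, and their median ratio of observed to expected CpG was 0.83. It was 0.80 at starts in WT peaks of 1000 to 1499 bp, 0.71 from 500 to 999 bp, 0.40 under 500 bp and 0.20 at starts in no WT peak. The median GC content followed the same order, at 67%, 64%, 59.3%, 54% and 47%. Starts in broad sites are therefore close to those in the next narrower class and far from starts without a peak.

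Short motifs were searched for on both strands of these windows, and a match is only a run of letters. The GC box GGGCGG, bound by SP family factors, was in 76.6% of windows at broad sites, 70.9% in the class from 1000 to 1499 bp and 36.0% of all windows. The TATA box letters TATAAA were in 4.50%, 4.82% and 13.6%. A core of the CTCF motif, CCNNNAG directly followed by NNGGC, was in 12.9% at broad sites, 14.1% in the next narrower class and 8.73% of all windows. The NRF1 letters, GCGCA directly followed by their reverse complement TGCGC, were in 1.79%, 2.56% and 0.968%. The ETS letters CCGGAAGT were in 3.64% at broad sites, below the 7.93% of the next narrower class and near the 3.95% of all windows. CCAAT was in 34.2%, 35.4% and 37.3%. Of the stretches printed above, the Clstn1 window held the CCAAT and GC boxes, the Sinhcaf window the GC box and the Nlrp6 window none of these letters. The sets of windows differ in GC content, as given above, and its part in the motif shares was not tested.

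The widest site of all was 2988 bp inside Asap1 (chr15:64310984-64313971, fold 4.78), which encodes a GTPase-activating protein of the cell cortex. Its share covered ran from 52.7% in R339Q through a median of 71.6% to 90.7% in H455R, and it was split in all 9 lists. Every list kept a peak over its middle, of fold 4.08 (K365T) to 8.37 (R448Q), with a gap between that peak and another further right. The gap began 1894 bp (Q418R) to 2335 bp (H455R) from the WT start and ended 2428 bp (R377H) to 2546 bp (H455R) from it, so all 9 lists lost the same stretch within it. The Clstn1 site (chr4:149584807-149587782, 2976 bp, fold 3.96) was covered at 76.0% (K365T) to 93.8% (R342C), and 7 lists kept a broad peak within it. At Nsd1, the gene of a histone H3 methyltransferase, 2847 bp were covered at 77.1% (K365T) to 98.6% (R448Q), and S354F and R448Q kept a single peak. Lrrc75a (2822 bp, fold 4.07) was covered at 77.6% (R448Q) to 99.5% (Q418R), with a median of 91.4% that fell to 0% in lists of equal size. The Nlrp6 site (chr7:140920572-140923356, fold 6.47) was among the least stable of the wide sites, with 48.3% covered in K365T, 58.6% in Q418R, a median of 74.5% and 89.9% in R342C.

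Several other wide sites kept a broad peak in most or all lists. The 2641-bp site at Sinhcaf (chr6:148944379-148947019, fold 7.69) was covered at a median of 97.2% and split only in K365T, where 3 peaks covered 82.9%. At Klf12, the gene of a Krüppel-like repressor, 2433 bp were in a single broad peak in all 9 lists, with 86.4% (R377C) to 95.1% (S354F) covered. The site 79 bp outside Rpl3, a ribosomal protein gene, was covered at a median of 98.3% and broad in all 9 lists. Bhlhe40, a transcription factor gene of the circadian clock, Syngr1, Tob1, an antiproliferative gene, Tpbg and Pgr, the progesterone receptor gene, also kept a broad peak in all 9 lists. The plot of the widest sites holds others as well. Nedd4l, Kmt2e, Gm41693, Lrrc4, Zbtb25 and Zbtb1, Misp3 and a site 25.1 kb from Atp23 kept a broad peak in 7 to 9 lists. Prr5l kept one in only 2 lists, Tubb2b in 3 and a site 12.1 kb from Clstn3 in 5.

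**Figure D5:**
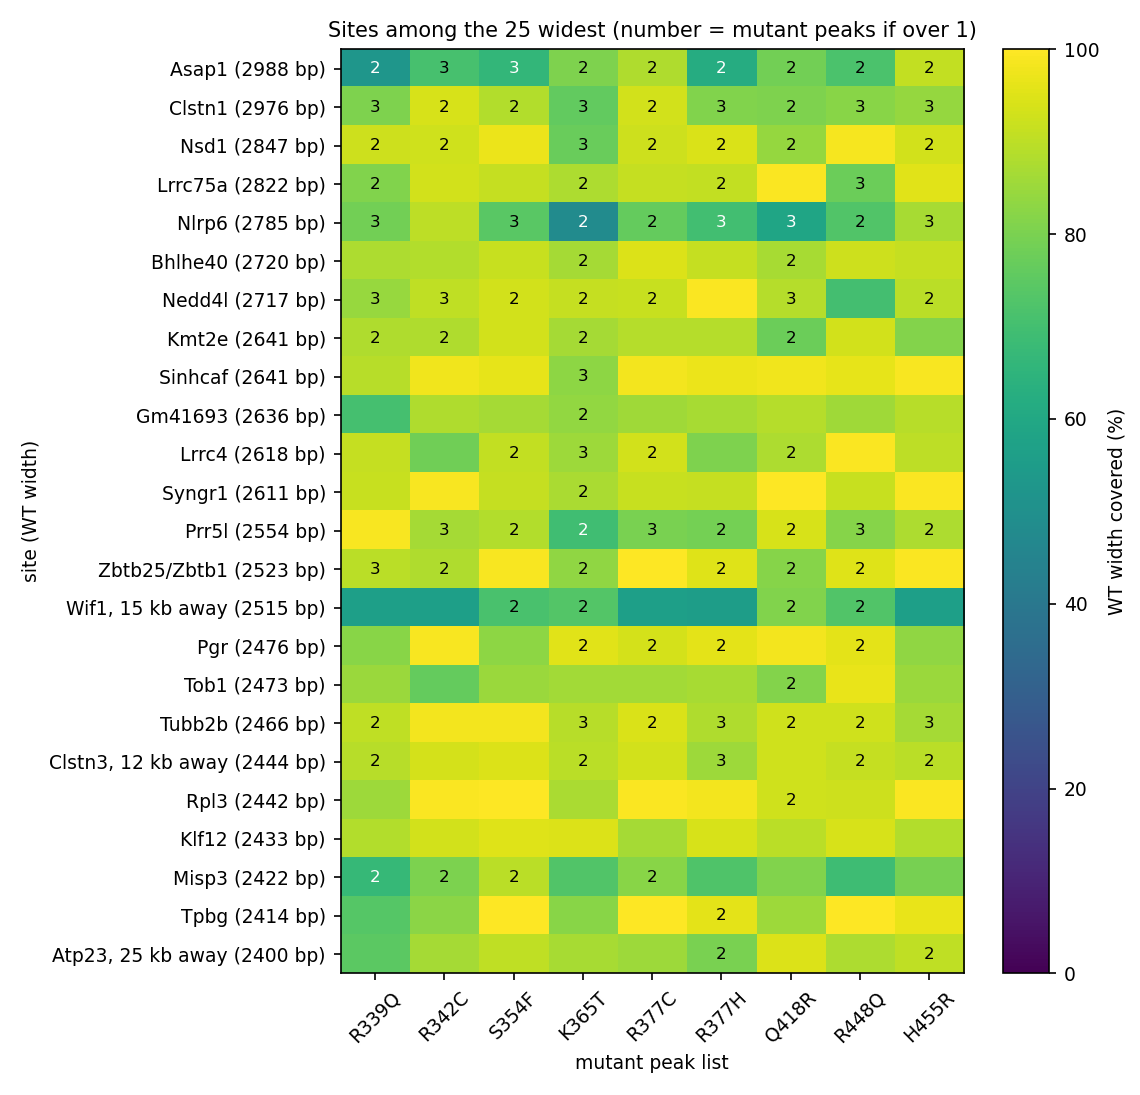
Share of the WT width covered (colour, percent) at 24 of the 25 widest broad WT sites (rows, with gene and WT width) in each mutant peak list (columns); a number in a cell is the count of mutant peaks where above 1. Asap1 and Clstn1 carry a number in all 9 columns and Klf12 in none, and the row 15.4 kb from Wif1 is among the darkest, with a median of 56.6%.

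A site between genes, 15.4 kb from Wif1, the gene of a secreted WNT inhibitor, lost the same side of its width, in whole or in part, in every list. In WT it was 1 peak of 2515 bp (chr10:121016093-121018607, fold 9.28). R339Q, R342C, R377C, R377H and H455R had only a peak over its left side, ending 1402 to 1423 bp from the WT start, and so covered 55.7% to 56.6%. S354F, K365T, Q418R and R448Q had that peak too, ending 1414 to 1460 bp from the WT start, with a second, weaker peak further right of fold 2.31 to 2.71 that raised the cover to 71.3% to 81.2%. No list kept a peak of 1500 bp there. No peak number was skipped at this site, and WT has the highest background coverage of the lists, whose part in the joining was not tested.

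The sites covered least kept different parts of their width. The site inside Vill, a villin-like actin-binding gene (chr9:119054722-119056461, fold 4.15), kept a peak over its centre in all 9 lists, and 27.4% (R339Q) to 56.3% (Q418R) of the width was covered. The site 9.09 kb from Plpp3, a lipid phosphate phosphatase gene, kept its right end in all 9 lists and was covered at 30.3% (R377C) to 94.0% (H455R). Medians under 50% were also found inside Aplp2 (43.9%, 18.9% in R339Q to 67.4% in R377C), inside Nup107 (45.5%), 19.5 kb from Ccdc126 (43.0%), 171 kb from Pik3c3 (48.2%) and inside Xpnpep1 (39.4%, where several lists skip peak numbers). In all, 10 sites had a median share under 50%, and 1247 (60.4%) had one of at least 90%. The median share was not computed over all WT peaks.

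The sites cut into most pieces were at Slc13a5, a citrate transporter gene, Pxylp1, Gm30115 and Iqcf3, followed by Clstn1, the widest of 5 sites tied at 23 peaks over the 9 lists, the Rpl14 site among them. Slc13a5 (2047 bp) was in 2 to 4 peaks in all 9 lists, with 4 in S354F, where 54.0% was covered. Iqcf3 (1570 bp) was in 2 or 3 peaks in all 9 lists, with 36.2% covered in R339Q and 82.3% in R377C. Pxylp1 stayed whole only in R377C and Gm30115 only in S354F.

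Of 20665 protein-coding genes on chromosomes 1 to 19, 1419 (6.87%) had a broad WT site at an annotated end. Among the 14977 of them with any WT peak at an end, the share was 9.47%. The gene lists below are set beside these shares without a test. Counted over genes with such a peak, the lists nearest to 9.47% were Hox (11.4%), immediate early (10.5%), CTCF and cohesin (10%) and imprinted genes (8%). Ribosomal protein genes, which make up the protein part of the ribosome, had a broad site for 15 of 72 (20.8%), and all 72 had a WT peak at an end. Among naive pluripotency genes it was 3 of 19, namely Nanog, Tet1 and Tdgf1, and among formative and primed genes 2 of 13, Dnmt3b and Zic2. Immediate early genes had 2 of 20 (Jun and Ier5) and Hox genes 4 of 39 (Hoxb9, Hoxc13, Hoxd1 and Hoxd13). Chromatin remodellers had 2 of 12 (Smarca5 and Ino80), CTCF and cohesin genes 1 of 12 (Ctcf), imprinted genes 2 of 28 (Kcnq1 and Ube3a), and WNT and TGF-beta ligands and antagonists 4 of 28 (Wnt4, Wnt7a, Sfrp2 and Nog). Translation and splicing factors had 3 of 24, Hnrnpa1, Hnrnpa2b1 and Hnrnpk. Developmental transcription factors had 2 of 60 (Sox17 and Hand2), replication-dependent histone genes 0 of 56, fibroblast markers 0 of 9, trophoblast markers 0 of 8, primitive endoderm markers 1 of 8 (Sox17) and neural markers 1 of 7 (Tubb3).

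Where a ribosomal protein gene had a broad site, it was most often at the far end of the gene. Of the 52 such genes with a known strand, 2 (3.85%) had it at the start and 9 (17.3%) at the 3′ end, against 5.95% and 1.05% of 16457 protein-coding genes with a strand. A site counted here may belong to a neighbouring gene: the sites of Rpl19, Rpl23a and Rps15 also lay at or near Cacnb1, Tlcd1 and Apc2. Their mutant values varied widely. The 1561-bp site 131 bp outside Rps15a was whole in all 9 lists, with 98.5% to 100% covered. The 1646-bp site 0.37 kb outside Rpl14 was split in all 9, with 33.0% covered in R339Q, a median of 69.1% and 88.9% in Q418R. At Rplp1, 0.90 kb away, the site was covered at 40.1% (R339Q) to 99.8% (Q418R) and split in 8 lists. The site of Rps19 was also split in 8.

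Sites at genes of stem cell identity had median shares from 62.1% to 99.6%. The site 103 bp outside Nanog, a core naive pluripotency factor, was covered at 81.3% (K365T) to 98.3% (R342C) and split in 6 lists. Tdgf1, which encodes a Nodal co-receptor, had 2 broad sites, and they differed: the 1600-bp one was covered at a median of 62.1%, with 44.1% in R339Q and S354F and 100% in H455R, and the 1947-bp one at a median of 99.6%. Tet1, a methylcytosine dioxygenase gene, was covered at 89.6% (R377C) to 98.3% (R377H). Dnmt3b and Zic2 were split in no list, with medians of 90.5% and 98.2%.

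The site at Ctcf itself (chr8:105635601-105637176, 1576 bp, fold 9.38) was split in no list. It was covered at 69.6% in R339Q, 81.2% in K365T, 81.8% in H455R, 92.2% in R342C, 95.9% in R377H, 98.0% in R377C, 98.2% in Q418R and 100% in S354F and R448Q. Jun, an AP-1 subunit gene, was covered at 94.7% or more in 6 lists, but at 83.9% in R448Q, 79.0% in H455R and 49.7% in Q418R. Hoxb9 and Hoxc13 were whole in all 9 lists, at 91.1% to 99.8% and 94.3% to 100%. Hoxd1 was covered at 54.5% (R377H) to 96.3% (H455R) and kept a broad peak in none. The sites at Smarca5, a chromatin remodelling ATPase gene, and at Hnrnpk were whole in all 9 lists, at 95.9% and 96.7% or more. Wnt4, the gene of a secreted WNT ligand, was split in 7 lists and covered at 59.4% (R339Q) to 99.8% (H455R), whereas Nog, a BMP antagonist gene, was split only in K365T.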

How the data were processed

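Omni-ATAC-seq of 20 samples, 2 replicates of each of 10 genotypes, was analysed from the 10 peak lists that the authors deposited, 1 per genotype with both replicates combined. Per the submitters' processing notes the build was mm10 and the tools were Bowtie2, MACS2, Trim Galore and deepTools; their versions, read shifting, duplicate handling and thresholds are not stated there. The authors deposited 1 unlabelled value per peak, taken here, by its steps and range, for MACS2's fold enrichment, the ratio of observed to expected coverage, and was used only to describe or rank peaks within a list. A total of 2066 WT peaks of at least 1500 bp on chromosomes 1 to 19 were compared by position with each mutant list, in Python 3.11.15 with pandas 2.3.3, numpy 2.4.6 and scipy 1.17.1. Read totals were not used here; background coverage was computed from the steps of the fold values. Genes came from a RefSeq table of GRCm38.p6, whose chromosomes are those of mm10, and strands and start sequences from a RefSeq start table that was used without chromosome 18, so those counts are over 2000 sites.

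Sites named are the 25 widest, the 10 least covered, the 5 with most mutant peaks, those missing from a list, the 3 narrowest, the 3 widest non-members and those at genes of the 16 gene lists. A site is named by the protein-coding gene whose end lies within 1 kb, else by the gene around it, else by the nearest gene with the distance. Results of 2 such sites are not reported here. Mutants' own broad sites named elsewhere were chosen after their values were seen. The members and lists were chosen with earlier results of these data known. The overlap, coverage and splitting counts were tested on simulated peaks. Alternatives were a minimum width of 1000 or 2000 bp, lists of equal size, a minimum of 50% covered, sites chosen in the mutant list, and mutant peaks under 150 bp apart joined. Joining peaks in all 10 lists and leaving out the 35 sites beside a skipped peak number were added after seeing the data.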

Additional observations from a re-analysis of the deposited data

How the results depend on the processing

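No paired analysis was possible because each genotype's replicates were combined in 1 list before deposit; for the same reason no replicate could be left out. The share of sites found in all 9 lists was 98.4% from 1000 bp, 100% from 2000 bp, 98.2% with each mutant list limited to its 121032 strongest peaks, 93.7% when 50% of the width had to be covered and 99.6% with peaks less than 150 bp apart joined in all 10 lists. Without the 35 sites beside a skipped peak number, 2029 of 2031 were found in all 9, and the coverage and splitting of every list moved by less than their intervals or spread.

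The share of width covered was 90.2% in R448Q for sites from 1000 bp. In lists of equal size it was 86.3% in R342C, 90.2% in S354F, 83.8% in K365T, 88.9% in R377C, 86.3% in R377H, 84.7% in Q418R, 89.9% in R448Q and 87.4% in H455R. For sites chosen in the mutant list and covered by WT it was 95.3% in R339Q, 95.4% in R342C, 96.1% in K365T, 93.8% in R377C, 94.9% in R377H, 95.3% in Q418R, 90.1% in R448Q and 94.8% in H455R. With peaks joined in all 10 lists, which gave 2808 broad WT sites, it was 81.7% in R339Q, 85.9% in R342C, 89.9% in S354F, 85.4% in K365T, 89.7% in R377C, 87.2% in R377H, 84.3% in Q418R, 90.02% in R448Q and 88.8% in H455R.

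The split share depended most on the settings. In the order R339Q, R342C, S354F, K365T, R377C, R377H, Q418R, R448Q and H455R it was 13.4%, 12.5%, 7.78%, 21.0%, 9.48%, 14.8%, 16.3%, 11.4% and 13.2% for sites from 1000 bp. In the same order it was 42.6%, 30.3%, 21.0%, 50.8%, 27.7%, 41.5%, 44.6%, 28.2% and 30.3% from 2000 bp, and 18.97%, 14.0%, 10.5%, 18.6%, 13.8%, 14.2%, 17.2%, 9.0% and 13.4% with mutant peaks less than 150 bp apart joined. With peaks joined in all 10 lists it was 27.5% in R339Q, 18.3% in S354F, 29.0% in K365T, 23.1% in R377C, 22.8% in R377H, 27.4% in Q418R and 16.6% in R448Q. In lists of equal size it was 13.4% in R342C, 8.66% in S354F, 26.5% in K365T, 9.73% in R377C, 17.0% in R377H, 22.5% in Q418R, 11.3% in R448Q and 12.1% in H455R. The causes were not tested, beyond that a joined or shortened list has fewer peaks by construction.

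Of the 25 widest sites, 20 kept a median share within their spread in lists of equal size. The other 5 had medians of 0% at Lrrc75a, 74.0% at Nedd4l, 80.5% at Lrrc4, 69.2% at Prr5l and 85.5% at Pgr. Trimming removes the weakest peaks of a mutant list by construction. The WT fold was 4.07 at Lrrc75a and 3.96 at Clstn1, which kept a median of 80.8%. The part of peak strength at single sites was not tested. Peak lists cannot show signal below the calling threshold, so a site that is narrower or split may still hold signal in the part not covered.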

Other observations

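There were 4 broad peaks of the mutants with no WT peak at all, at 3 places, chosen after their values were seen. At 55.2 kb from Zfp36l2, the gene of an RNA-binding protein that destabilises mRNA, R342C had a peak of 1736 bp (chr17:84126971-84128706, fold 6.12) and R377C one of 1522 bp, and 8 mutant lists had a peak there. Beside Cabp7 and Zmat5, R448Q had a peak of 1506 bp (chr11:4735197-4736702, fold 5.51) and all 9 mutant lists had one. At 85.3 kb from Lrpap1, the gene of a chaperone of lipoprotein receptors, R448Q had a peak of 1533 bp (chr5:35190962-35192494, fold 9.01) and 8 mutant lists had one. The WT list skips no peak number at these places.

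The widest peak of any list was 3441 bp at Tshz3, a zinc finger developmental gene, and Gm36722 in R448Q (chr7:36695364-36698804, fold 4.82), where WT had 4 peaks covering 78.9%, the widest of them 979 bp. Q418R had its widest peak, 3020 bp, at Lrrc75a. R339Q, R342C and R377C had theirs, 2828, 2837 and 2828 bp, at the same site of Rims2, a gene of synaptic vesicle release, where WT had 2 peaks, the wider of 1679 bp. S354F and H455R shared theirs, 2997 and 2873 bp, inside Nr3c1, the glucocorticoid receptor gene, where WT had 3 peaks covering 90.7% and 89.9%.

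Broad WT sites were rarely neighbours. The median distance to the next was 229 kb, and 61 (2.95%) lay within 10 kb of another. The only group of 3 was at Rpl38 and Ttyh2 (chr11:114672877-114693125), with widths of 1782, 1656 and 1616 bp. By chromosome, the number of broad sites per 1000 WT peaks ran from 9.71 on chromosome 1 to 15.6 on chromosome 7. The share covered on a chromosome lay at most 4.96 percentage points above its list's total, for K365T on chromosome 3, and at most 3.30 below, for Q418R on chromosome 6.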
